A study of Mus musculus with 8 samples.

Results

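The genes examined here encode nuclear subunits of the mitochondrial respiratory chain. They were taken by symbol from the array's probe-to-gene table: the Ndufa, Ndufb, Ndufc, Ndufs and Ndufv genes with Ndufab1, the 4 Sdh genes, the Uqcr genes with Cyc1, the Cox4 to Cox8 genes, and the Atp5 genes. This gave 86 probe sets, each of a different gene, out of 22206 on the array. Of these, 36 belong to complex I, 4 to complex II, 9 to complex III, 20 to complex IV and 17 to complex V.

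Complex I passes electrons from NADH, and complex II from succinate, to ubiquinone. Complex III hands them to cytochrome c and complex IV to oxygen, and complexes I, III and IV pump protons out of the matrix as they do so. Complex V, the ATP synthase, lets the protons back and makes ATP. In the small intestine the absorptive cells of the villus use this ATP for the sodium pump that drives nutrient uptake, and smooth muscle of the gut wall has mitochondria of its own. Most subunits are encoded in the nucleus, and a few have isoforms whose use depends on the tissue.

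Expression was measured in the small intestine (duodenum, per the series design) of 4 knockout mice (KO), labelled as having a depletion of IκBα, and of 4 mice labelled WT. IκBα, the product of Nfkbia, holds the transcription factor NF-κB in the cytoplasm. The KO mice carried a floxed Nfkbia allele and Villin-Cre, which deletes in villin-expressing epithelium. The sequence removed by Cre holds the core promoter, upstream NF-κB sites and the first exons. Each WT was a littermate of a KO, so there were 4 sibling pairs, and the sources used here do not give the floxed or Cre status of the WT mice. The siblings were 8, 11, 8 and 9 weeks old in pairs 1 to 4. They were both male in pair 1 and both female in pair 2, while pair 3 had a male KO and a female WT and pair 4 a female KO and a male WT. The mice were untreated, and frozen tissue was homogenized whole, so smooth muscle and other cells contribute RNA.

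Each value is a log2 expression value of 1 probe set on a Clariom S array, and differences are KO minus WT within a sibling pair. The targeted gene itself, Nfkbia, was 6.82, 6.65, 7.72 and 6.65 in the KO mice of pairs 1 to 4, against 9.75, 9.91, 9.01 and 9.78 in their WT siblings (limma adjusted p = 0.0130). Its loss was smallest in pair 3, with differences of −2.93, −3.26, −1.29 and −3.13 in pairs 1 to 4. All 17 epithelial markers, villin among them, lay above the background level of 5.65, below which 95% of the 1091 probe sets of olfactory receptors lay. In the deposited values the means of the 4 pairs were nearly equal for most probe sets (median SD 0.0175, against a median SD of 0.179 for the within-pair differences). Differences between pairs in level were thus not interpreted, and a gene that differed one way in all 4 pairs nearly always had groups that did not overlap. Adipocyte markers had median differences of 1.61, 1.17, 0.11 and −0.11 in pairs 1 to 4, with 0 of 13 genes called. Pancreatic acinar markers had −0.51, 0.06, −3.93 and −3.39, with 1 of 13 called, Clps (−2.68). Of the epithelial markers 1 was called, Cdx1 (0.437), and their median difference was −0.023, with 5 above and 7 below 0 in all 4 pairs. Villin (Vil1) was below in all 4, at −0.343 (limma adjusted p = 0.0512). Immune markers had a median of −0.035 with 1 of 10 called, Cd4 (0.395), and housekeeping genes a median of 0.2 with 1 of 11 called, Gusb (0.372). The 11 housekeeping genes include Sdha, itself a member, which was left out of the 10 used for centring below. RNA integrity numbers ran from 7.0 to 8.7.

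The respiratory chain genes differed little between KO and WT duodenum. By limma with the sibling pair as a block and Benjamini-Hochberg adjustment over all probe sets, 2 of the 86 were called higher in KO, Uqcrc1 and Ndufc1, and 1 was called lower, Cox7a1. Over the whole array 5.86% of probe sets were called, 3.16% higher and 2.7% lower, beside 3.49% of the members, a difference that was not tested. At an unadjusted p under 0.05, 21 members were higher and 4 lower (24.4% and 4.65%), against 13.2% and 14.2% of the array. Only Cox7a1 differed by at least 0.5 on the log2 scale. The 95% confidence interval of the difference lay within −0.5 and 0.5 for 79 of the 86 genes and within −1 and 1, a 2-fold change either way, for all 86. Of the 86 genes 84 had a mean above the background level, and the exceptions were Cox8b and Cox7b2.

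**Figure D1:**
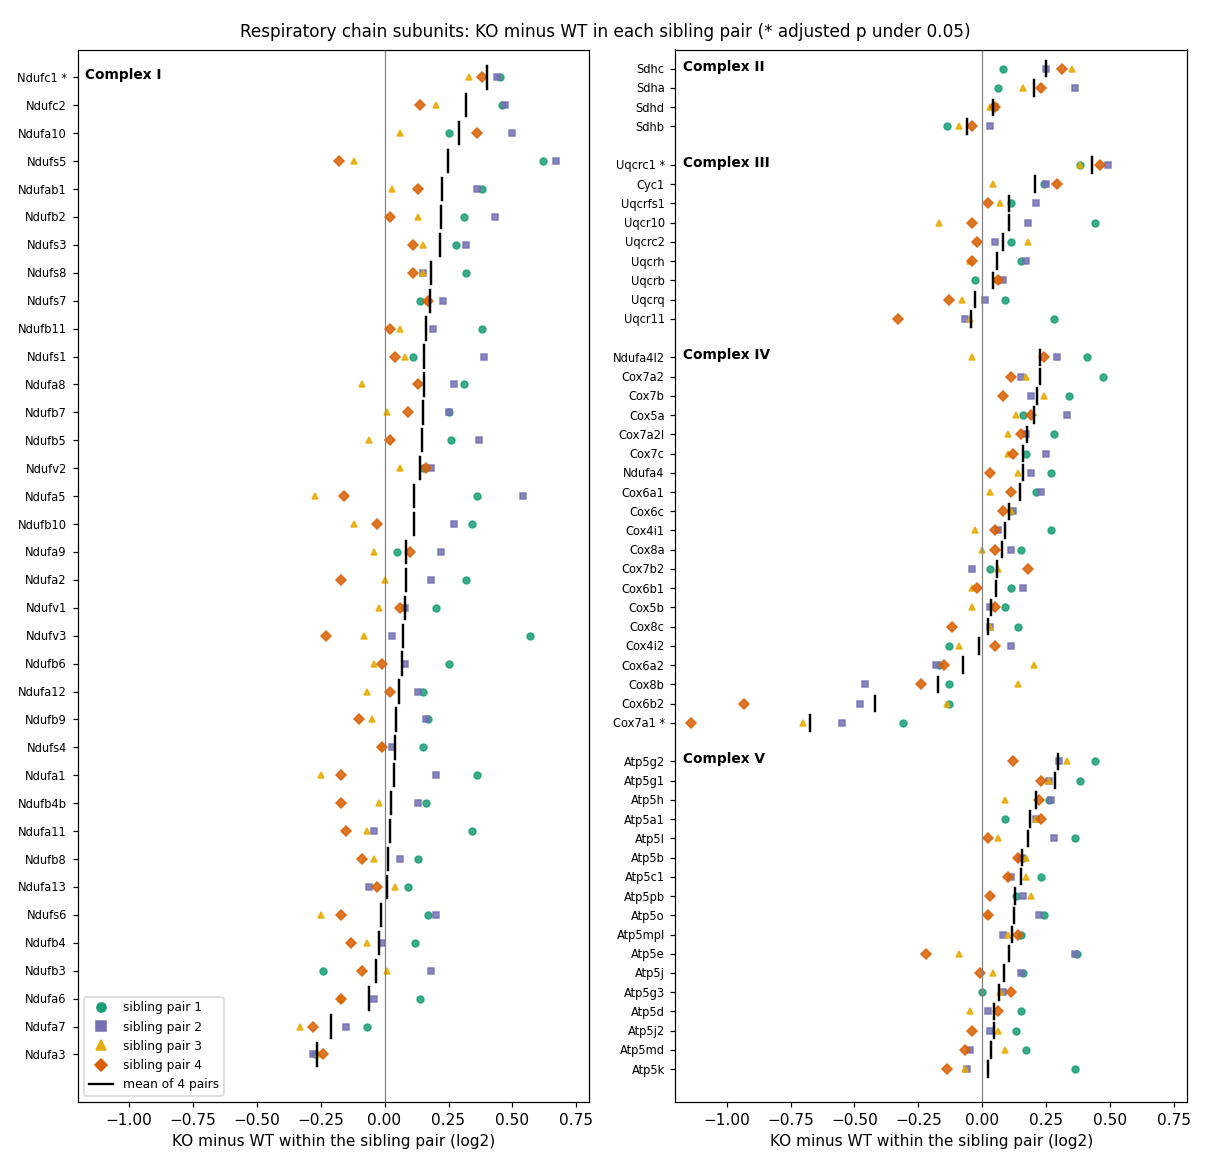
Within-pair differences (KO minus WT, log2, horizontal axis) of the 86 subunit genes, grouped by complex and ordered by their mean. Symbols are the 4 sibling pairs, black bars the mean of the pairs, and asterisks the genes with an adjusted p under 0.05. In the deposited scaling most means lie slightly right of 0, Uqcrc1 (0.427) and Ndufc1 (0.400) farthest right and Cox7a1 (−0.675) farthest left.

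Uqcrc1 (probe set TC0900001427.mm.2) encodes a core protein of complex III that faces the matrix. Its values were 11.10, 11.18, 11.19 and 11.27 in the KO mice of pairs 1 to 4, against 10.72, 10.69, 10.81 and 10.81 in their WT siblings. All 4 KO values lay above all 4 WT values. The difference was 0.427 ± 0.056 (log2, SD, n = 4 pairs), or 1.345-fold, with a limma adjusted p = 0.0255. Ndufc1 (TC0300001956.mm.2) encodes a small accessory subunit in the membrane arm of complex I. It read 12.07, 12.06, 12.03 and 12.08 in KO, against 11.62, 11.62, 11.70 and 11.70 in WT. The KO values were again all higher, and the 4 differences (0.45, 0.44, 0.33 and 0.38) were close to each other. The mean difference was 0.400 ± 0.056 (n = 4 pairs, limma adjusted p = 0.0298).

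Cox7a1 (TC0700000552.mm.2) encodes the form of a small complex IV subunit that is typical of heart, skeletal muscle and brown fat. It read 10.08, 9.96, 9.91 and 9.66 in KO, against 10.39, 10.51, 10.61 and 10.80 in WT. All KO values were lower, and the sibling difference was smallest in pair 1 (−0.31) and largest in pair 4 (−1.14). The mean difference was −0.675 ± 0.349 (n = 4 pairs, limma adjusted p = 0.0416), so the level in KO was 0.626 of that in WT. In an exact permutation test, 2 of the 16 ways to flip signs within pairs gave a difference as large for each of the 3 genes, the fewest that 4 pairs allow. Leaving out any 1 pair ended all 3 calls, with limma adjusted p-values from 0.0631 to 0.117, and adding sex (0.0596 to 0.0708) or RNA integrity (0.0586 to 0.0704) as a covariate did so too. With the pair as a random effect the call of Uqcrc1 ended (adjusted p = 0.153 by limma). The sibling correlation fitted there was −0.924, which a shared pair effect cannot give, so this setting does not describe the pairs well. Centring on housekeeping genes ended the calls of Uqcrc1 (0.252, adjusted p = 0.054 by limma) and Ndufc1 (0.224, adjusted p = 0.064), and centring on epithelial genes that of Ndufc1 (0.353, adjusted p = 0.0612 by limma). The differences without 1 pair were 0.407 to 0.443 for Uqcrc1, 0.383 to 0.423 for Ndufc1 and −0.797 to −0.520 for Cox7a1. With sex as a covariate the differences were unchanged. With RNA integrity they were 0.438 for Uqcrc1, 0.402 for Ndufc1 and −0.722 for Cox7a1. Fits without 1 pair or with a covariate have fewer residual degrees of freedom.

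**Figure D2:**
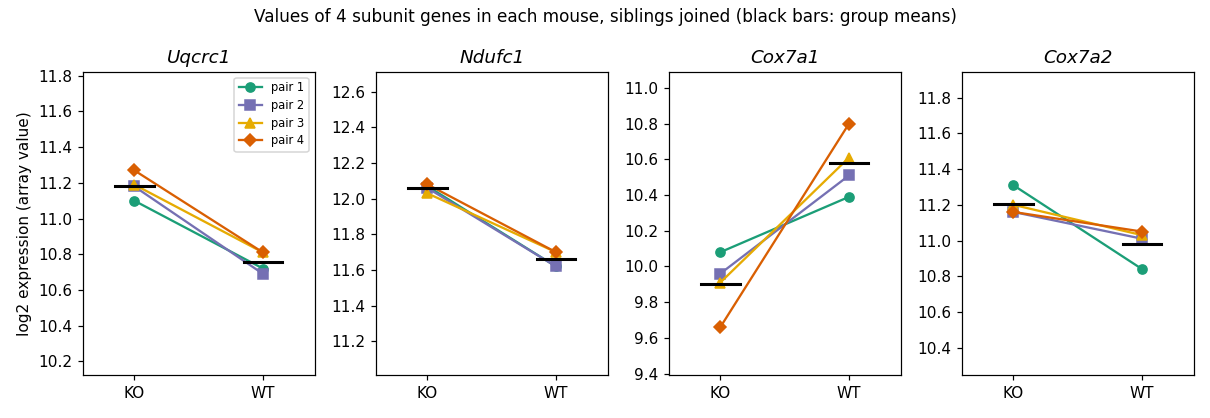
Log2 expression of Uqcrc1, Ndufc1, Cox7a1 and Cox7a2 in each mouse, KO left and WT right, with lines joining siblings and black bars at the group means. Each panel spans the same range of log2 units. The KO values of Uqcrc1, Ndufc1 and Cox7a2 all lie above the WT values, and those of Cox7a1 all lie below, from 9.66 to 10.08 against 10.39 to 10.80.

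Promoter sequences of the 3 called genes, and of Cox7a2, which encodes the widely expressed alternative to Cox7a1, are shown to set the motifs of mitochondrial gene promoters beside the values. They run from 250 bases before to 50 after the annotated start (RefSeq, GRCm38.p6), 5′ to 3′ on the gene's strand, with the Uqcrc1 window at chr9:108936398-108936697 (+), Ndufc1 at chr3:51408906-51409205 (−), Cox7a1 at chr7:30183921-30184220 (+) and Cox7a2 at chr9:79759804-79760103 (−). Capitals mark motif matches.
Uqcrc1: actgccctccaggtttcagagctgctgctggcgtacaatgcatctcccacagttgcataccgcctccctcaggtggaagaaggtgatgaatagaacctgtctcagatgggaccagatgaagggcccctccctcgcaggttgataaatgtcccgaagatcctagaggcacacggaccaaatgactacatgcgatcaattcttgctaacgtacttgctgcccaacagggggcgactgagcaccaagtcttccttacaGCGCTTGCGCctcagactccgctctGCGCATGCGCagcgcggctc
Ndufc1: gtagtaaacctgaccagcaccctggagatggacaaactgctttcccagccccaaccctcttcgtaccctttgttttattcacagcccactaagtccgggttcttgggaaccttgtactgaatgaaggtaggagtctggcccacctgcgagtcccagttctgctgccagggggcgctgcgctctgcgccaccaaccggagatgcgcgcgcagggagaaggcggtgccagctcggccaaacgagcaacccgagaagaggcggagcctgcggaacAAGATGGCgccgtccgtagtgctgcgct
Cox7a1: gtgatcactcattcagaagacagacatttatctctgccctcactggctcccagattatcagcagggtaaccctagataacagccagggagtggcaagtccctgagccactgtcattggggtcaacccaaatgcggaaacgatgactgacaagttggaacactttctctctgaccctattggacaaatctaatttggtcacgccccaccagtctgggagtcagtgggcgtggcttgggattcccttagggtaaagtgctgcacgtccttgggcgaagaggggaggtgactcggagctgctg
Cox7a2: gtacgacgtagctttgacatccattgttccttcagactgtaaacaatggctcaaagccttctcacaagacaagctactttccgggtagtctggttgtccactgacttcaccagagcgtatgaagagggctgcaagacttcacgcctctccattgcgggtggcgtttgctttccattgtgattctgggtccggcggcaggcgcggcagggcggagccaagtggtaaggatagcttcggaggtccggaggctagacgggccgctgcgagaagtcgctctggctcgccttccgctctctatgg
NRF1, GABP and YY1 are transcription factors known to bind promoters of respiratory chain genes. The windows were searched on both strands for NRF1 (GCGC, any 2 bases and GCGC again), GABP (CCGGAAG), YY1 (AAGATGGC), NF-κB (GGGA, any 1 base and TTTCC) and the CArG box of serum response factor, a factor of smooth muscle genes. In the windows shown no match overlapped a match of another motif. Uqcrc1 held 2 NRF1 matches, GCGCTTGCGC from base 6 and GCGCATGCGC from base 31 after the start. Ndufc1 held the YY1 letters from base 23. The windows of Cox7a1 and Cox7a2 held none of the 5 motifs, which says only that these letters are not there.

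Promoter windows were found for 70 of the 86 genes. An NRF1 match was present in 19 of the 70 (27.1%), against 7% of all 27025 genes with a window. GABP matches were present in 17 (24.3%, against 9.93% of all), and YY1 matches in 10 (14.3%, against 3.19%). No member's window held the NF-κB or CArG letters, which 0.466% and 1.81% of all genes held. At least 1 of the NRF1, GABP and YY1 motifs was found in 40 of the 70 (57.1%, against 17.9%). By complex, NRF1 matches were found in 9 of 33 genes of complex I, 2 of 3 of complex II, 1 of 5 of complex III, 1 of 14 of complex IV and 6 of 15 of complex V. The median difference was 0.137 for the 19 genes with an NRF1 match and 0.082 for the 51 without one. For GABP the medians were 0.078 with and 0.115 without a match, and for YY1 0.064 and 0.110.

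Beyond the called genes, most members had a small positive mean difference. It was above 0 in 72 of the 86 genes (83.7%), against 46.3% of all probe sets, with a median of 0.095, against −0.015 over the array. The members' medians were 0.165, 0.16, 0.03 and 0.025 in pairs 1 to 4. With only pairs 1 and 2 the median was 0.165, with 76 genes above 0, and with only pairs 3 and 4 it was 0.022, with 53 above 0. The adipocyte marker medians were also highest in pairs 1 and 2 (1.61 and 1.17), as were those of acinar, smooth muscle and immune markers. The part of these cell types in the tilt was not tested. Among brighter probe sets, with a mean of at least 10, it was above 0 in 54 of 61 members (88.5%) and in 59.6% of 2112 probe sets. In 36 of the 86 genes (41.9%) the KO was above its sibling in all 4 pairs, against 16.5% of all probe sets, and in 4 (4.65%) it was below in all 4, against 17.9%. All 4 KO values lay above all 4 WT values in 34 genes (39.5%, against 15.9% of the array) and below them in 3 (3.49%, against 17.2%). These shares describe the members and carry no test. The sign of the tilt depends on the scaling. After each array was centred on 10 housekeeping genes, the members' median was −0.081 and 22 of 86 differences were above 0, while the median of the array was −0.191. Such centring moves every probe set alike, so the gap of 0.110 between the 2 medians is the same by construction. The gap was 0.065 after quantile normalization.

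**Figure D3:**
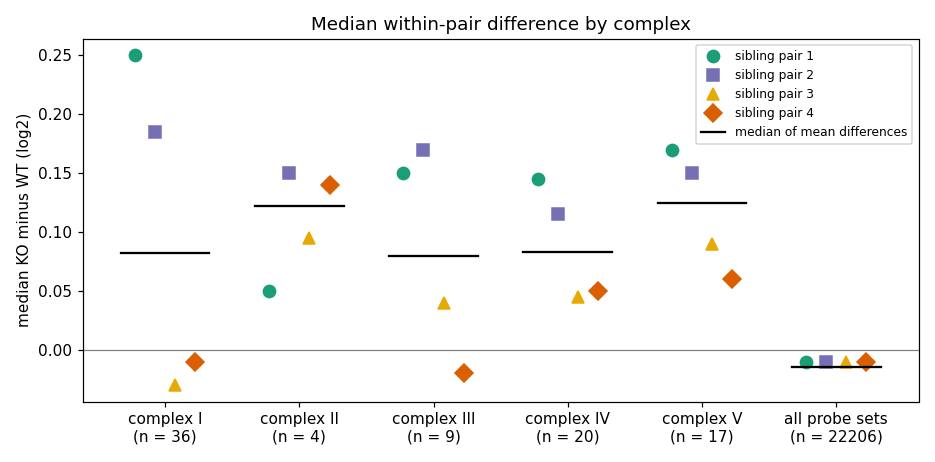
Median KO minus WT difference (log2) in each of the 4 sibling pairs for complexes I to V and for all probe sets, with the number of genes or probe sets below each name. Black bars are the medians of the mean differences. Complex I lies at 0.25 and 0.185 in pairs 1 and 2 and just below 0 in pairs 3 and 4, complex V lies above 0 in all 4 pairs in the deposited scaling, and all probe sets lie near 0.

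Complex I had the widest spread between pairs. Its median difference was 0.082, with 0.25, 0.185, −0.03 and −0.01 in pairs 1 to 4. In the peripheral arm, which holds the NADH site and the iron-sulfur clusters, the median of 15 genes was 0.082. The core subunit genes Ndufs3 (0.215), Ndufs7 (0.177), Ndufs8 (0.182) and Ndufs1 (0.155) and Ndufv2 (0.137) were above 0 in all 4 pairs, and none was called. The core gene Ndufv1 had 0.20, 0.08, −0.02 and 0.06, also without a call. Ndufa7, an accessory subunit gene of this arm, was below in all 4 pairs (−0.07, −0.15, −0.33 and −0.28), also without a call.

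In the membrane arm, which pumps protons, the median of 20 genes was 0.092. Besides Ndufc1, the accessory subunit genes Ndufc2 (0.46, 0.47, 0.20 and 0.14 in pairs 1 to 4) and Ndufa10 (0.25, 0.50, 0.06 and 0.36) were above 0 in all 4 pairs, with limma adjusted p-values of 0.0814 and 0.103. Ndufa3 had the largest negative mean difference of complex I. It read 11.58, 11.56, 11.60 and 11.62 in KO, against 11.85, 11.84, 11.86 and 11.86 in WT. The groups did not overlap, and the 4 differences (−0.27, −0.28, −0.26 and −0.24) had a mean of −0.263 ± 0.017 (n = 4 pairs, limma adjusted p = 0.0671). Ndufab1, the mitochondrial acyl carrier protein gene counted in neither arm, had 0.38, 0.36, 0.03 and 0.13. Ndufb4 (−0.023) and its close copy Ndufb4b (0.025) may share probes' targets and are uncertain as single genes.

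Some complex I genes were higher in KO in pairs 1 and 2 and lower in KO in pairs 3 and 4, without a call. Ndufs5, a small subunit gene of the membrane arm, read 8.97 and 8.96 in the KO of pairs 1 and 2, against 8.35 and 8.29 in their WT siblings, but 8.64 and 8.63 in the KO of pairs 3 and 4, against 8.76 and 8.81. Ndufa5, an accessory subunit gene of the peripheral arm, had differences of 0.36, 0.54, −0.27 and −0.16. The ATP synthase epsilon subunit gene Atp5e had 0.37, 0.36, −0.09 and −0.22. In all, 16 of 86 members (18.6%) were higher in KO in pairs 1 and 2 and lower in pairs 3 and 4, against 6.13% of all probe sets, and 11 of the 16 belong to complex I. In 35 of the 36 genes of complex I the mean of pairs 1 and 2 was above that of pairs 3 and 4, as it was in 75 of the 86 members (87.2%) and in 48.1% of all probe sets. By complex it held in 3 of 4 genes of complex II, 7 of 9 of complex III, 17 of 20 of complex IV and 13 of 17 of complex V. In complex II the gaps were only 0.015 (Sdha), 0.01 (Sdhb) and 0.005 (Sdhd), against −0.165 for Sdhc. Over all probe sets, differences correlated at 0.682 between pairs 1 and 2 and at 0.673 between pairs 3 and 4. Other pairings gave 0.346 to 0.42. The 86 members divided less clearly, with 0.644 between pairs 1 and 2 and 0.725 between pairs 3 and 4. Their differences correlated at 0.662 between pairs 2 and 4, and at 0.256 to 0.389 in the remaining pairings. The large mitochondrial ribosomal subunit list had medians of 0.2, 0.2, 0.04 and 0.025, with 38 of 48 genes above 0. Assembly factors of complexes II to V had 0.14, 0.25, 0.04 and 0.02. The tricarboxylic acid cycle (0.05, 0.235, 0.155 and 0.14), complex I assembly factors, regulators and carriers did not divide in this way.

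Siblings shared their sex in pairs 1 and 2 and not in pairs 3 and 4. A limma test of the difference in KO effect between these 2 kinds of pair called 0 of the 86 genes and 0.486% of all probe sets. At an unadjusted p under 0.05 it passed 9 members, or 10.5%, and 14.9% of all probe sets. Ndufs5 had the smallest adjusted p among the members (0.0835, difference 0.795). The test cannot show an additive difference between the sexes. The KO was the male in pair 3 and the female in pair 4, so such a difference would cancel in their mean. The adipocyte and acinar markers also divide pairs 1 and 2 from pairs 3 and 4. So do smooth muscle markers (medians 0.22, 0.065, −0.445 and −0.615 in pairs 1 to 4) and immune markers (0.23, 0.17, −0.02 and −0.44). The part of these cell types in the members' values was not tested.

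Complex II is succinate dehydrogenase, which also works in the tricarboxylic acid cycle. The membrane anchor gene Sdhc read 10.03, 10.12, 10.19 and 10.21 in KO, against 9.95, 9.87, 9.84 and 9.90 in WT. KO values were all higher, at 0.247 ± 0.119 (n = 4 pairs, limma adjusted p = 0.104). The flavoprotein gene Sdha had differences of 0.06, 0.36, 0.16 and 0.23 (adjusted p = 0.158 by limma). The other anchor gene, Sdhd, differed by 0.042 and the iron-sulfur gene Sdhb by −0.06, with 95% intervals of −0.116 to 0.201 and −0.229 to 0.109. Thus 0 of 4 were called, with 2 higher at an unadjusted p under 0.05, as were 13.2% of all probe sets.

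In complex III the median of 9 genes was 0.080. Beside Uqcrc1, its partner core gene Uqcrc2 differed by 0.11, 0.05, 0.18 and −0.02 in pairs 1 to 4 (95% interval of the mean −0.092 to 0.252), against an interval of 0.263 to 0.592 for Uqcrc1. Cyc1, the gene of cytochrome c1, had differences of 0.24, 0.25, 0.04 and 0.29 (limma adjusted p = 0.147), and the Rieske iron-sulfur protein gene Uqcrfs1 0.11, 0.21, 0.07 and 0.02. The 5 genes of small subunits lay between −0.043 (Uqcr11) and 0.102 (Uqcr10).

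Complex IV, cytochrome c oxidase, was the complex with tissue isoforms. Ndufa4 and its relative Ndufa4l2 were counted here, since the Ndufa4 protein is found in complex IV. The 12 widely expressed subunit genes had positive mean differences in the deposited scaling, from 0.032 (Cox5b) to 0.225 (Cox7a2), with a median of 0.151. Of them 0 were called, with 4 higher at an unadjusted p under 0.05, as were 13.2% of all probe sets. After centring on housekeeping genes Cox7a2 differed by 0.049 and Cox4i1 by −0.088. In pairs 1 to 4 Cox7a2 differed by 0.47, 0.15, 0.17 and 0.11, Cox6a1 by 0.21, 0.23, 0.03 and 0.11, Cox4i1 by 0.27, 0.06, −0.03 and 0.05 and Cox8a by 0.15, 0.11, 0.00 and 0.05. Cox6b1 differed by 0.053. Ndufa4 (0.157) and Cox7a2l (0.175), whose product links complexes III and IV, were above 0 in all 4 pairs.

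The 8 tissue isoform genes had a median of −0.045. Cox7a1 was called, as described above. Cox6b2, known as a testis form, read 6.83, 6.69, 6.67 and 6.23 in KO, against 6.96, 7.17, 6.81 and 7.16 in WT. It was lower in all 4 pairs, though the groups overlapped, at −0.420 ± 0.377 (n = 4 pairs, limma adjusted p = 0.124). The muscle form Cox6a2 differed by −0.17, −0.18, 0.20 and −0.15, and the muscle and brown fat form Cox8b by −0.13, −0.46, 0.14 and −0.24 at a mean level below background. Cox4i2 (−0.015) and Cox8c (0.020) had differences near 0. Cox7b2 differed by 0.058 and also lay below background. Ndufa4l2 had 0.41, 0.29, −0.04 and 0.24 (limma adjusted p = 0.176).

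**Figure D4:**
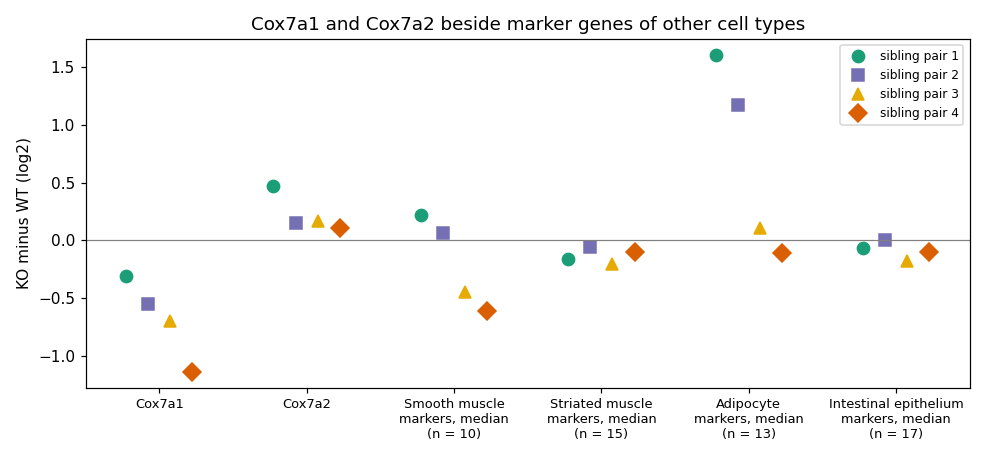
KO minus WT differences (log2) of Cox7a1 and Cox7a2 in the 4 sibling pairs, beside the medians of marker genes of smooth muscle, striated muscle, adipocytes and intestinal epithelium. Cox7a1 lies below 0 in all 4 pairs, while smooth muscle markers lie above 0 in pairs 1 and 2 (0.22 and 0.065) and below 0 in pairs 3 and 4 (−0.445 and −0.615).

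Because whole tissue was used, fewer cells of a type and less RNA per cell cannot be told apart. Smooth muscle markers had medians of 0.22, 0.065, −0.445 and −0.615 in pairs 1 to 4, with 0 of 10 genes called, and their mean level ran from 9.77 to 10.28 in KO and from 10.06 to 10.37 in WT. In pairs 3 and 4 the smooth muscle genes were below 0 in 9 and 10 of 10, and Cox7a1 had its largest differences (−0.70 and −1.14). In pairs 1 and 2, where 10 and 6 of the 10 smooth muscle genes were above 0, Cox7a1 differed by −0.31 and −0.55. Striated muscle markers had 1 of 15 called lower, Tnnt3 (−0.458, at a level below background), with medians of −0.16, −0.06, −0.21 and −0.10 and 7 of the 15 below background. Their mean level ran from 5.78 to 5.86 in KO and from 5.89 to 5.98 in WT. The brown fat genes Ucp1 and Cidea lay below background, at 4.43 and 5.32 in KO and 4.66 and 5.50 in WT. The part of muscle content in the Cox7a1 difference was not tested.

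In complex V all 17 genes had positive mean differences, from 0.022 to 0.297 (median 0.13, or −0.051 after centring on housekeeping genes). Of them 0 were called, with 4 higher at an unadjusted p under 0.05, as were 13.2% of all probe sets. The c ring genes Atp5g1 and Atp5g2, which encode the same mature rotor subunit, had the largest differences. Atp5g2 read 12.03, 11.97, 11.97 and 11.87 in KO, against 11.59, 11.67, 11.64 and 11.75 in WT, at 0.297 ± 0.133 (n = 4 pairs, limma adjusted p = 0.0761). Atp5g1 read 11.84, 11.79, 11.82 and 11.81 in KO, against 11.46, 11.53, 11.56 and 11.58 in WT, at 0.282 ± 0.067 (adjusted p = 0.0644 by limma). The groups did not overlap for either gene, while Atp5g3, the remaining c ring gene, differed by 0.065.

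In the catalytic head and central stalk of complex V, 3 of the 5 genes were above 0 in all 4 pairs. The beta subunit gene Atp5b had 0.16, 0.15, 0.17 and 0.14 in pairs 1 to 4, and the alpha subunit gene Atp5a1 0.09, 0.21, 0.21 and 0.23, with limma adjusted p-values of 0.189 and 0.150. The gamma subunit gene Atp5c1 had 0.23, 0.11, 0.17 and 0.10. The delta subunit gene Atp5d had 0.15, 0.02, −0.05 and 0.06, and Atp5e, given above, was below 0 in pairs 3 and 4. Of the membrane part and side stalk, Atp5h had the largest difference (0.210), and Atp5k the smallest (0.022), with 0.36 in pair 1 and −0.06, −0.07 and −0.14 in pairs 2 to 4.

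Other mitochondrial genes were counted for context, with lists given in the processing summary. Over the array 3.16% of probe sets were called higher and 2.7% lower. Calls of single genes in these lists were not followed through the alternative settings, in many of which the calls of members ended. Of 48 genes of the large mitochondrial ribosomal subunit, 5 were called higher and 0 lower, and the median difference was 0.112. The largest differences were those of Mrpl3 (0.830), Mrpl20 (0.675), Mrpl37 (0.487) and Mrpl10 (0.405), each above 0 in all 4 pairs. Of 16 regulators of mitochondrial gene expression, 2 were called higher and 0 lower. The coactivator gene Ppargc1b differed by 0.48, 0.70, 0.76 and 1.22 (mean 0.790, limma adjusted p = 0.0235) and the mitochondrial RNA polymerase gene Polrmt by 0.68, 0.36, 0.44 and 0.37 (0.462, adjusted p = 0.0329 by limma). Ppargc1a, a relative of Ppargc1b chosen after its values were seen, differed by −0.74, −0.31, 0.05 and −0.02 without a call.

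Among 18 genes of the tricarboxylic acid cycle and pyruvate entry, 1 was called higher, the pyruvate carboxylase gene Pcx (0.797, limma adjusted p = 0.0271), and the median was 0.145. Of 15 complex I assembly factors 0 were called, and the largest differences were those of Ndufaf1 (0.345) and Ndufaf5 (0.308). Of 31 assembly factors of the other complexes, Cox10, which acts in making the heme of complex IV, was called higher (0.497, adjusted p = 0.0329 by limma). Among 29 genes of electron carriers and membrane exchange, the ubiquinone synthesis genes Coq5 (0.550) and Coq2 (0.417) were called higher and Coq4 (−0.368) lower. In that list the muscle form of the ADP/ATP carrier, Slc25a4, chosen after its values were seen, differed by −0.14, −0.39, −0.48 and −0.72 without a call (limma adjusted p = 0.0610), and the widely expressed form Slc25a5 by 0.02, 0.00, 0.05 and −0.11.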

How the data were processed

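Clariom S mouse arrays were hybridised with RNA of 8 mice, 4 KO and 4 WT in 4 sibling pairs given by the labels. The authors deposited 1 log2 value for each probe set and mouse. The tools were RMA and Transcriptome Analysis Console 4.0, per the submitters' processing notes, and the sources used here give no further settings. Within groups, the deviations of siblings correlated between −0.913 and −0.87 over probe sets, with nearly equal pair means, so most differences between pairs are absent from the deposited values. The sources used here do not record the step that did this.

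Of 22206 probe sets 19572 carried a gene symbol in the platform annotation and 2634 did not. limma 3.58.1 in R 4.3.3 was fitted to all probe sets with the sibling pair as a block (3 residual and 6.63 total degrees of freedom), two-sided, with Benjamini-Hochberg adjustment over all of them and a threshold of 0.05. The procedure was tested on simulated data. The number of arrays limits the precision. The p-values measure the spread of within-pair differences in these mice only, with each variance drawn toward that of all probe sets. Intervals are limma's at 95%. Where a listed gene had several probe sets, the brightest was used. Arms of complex I and roles in complexes IV and V were assigned by hand from textbook knowledge. Motifs were counted in Python 3.11.15 with pandas 2.3.3 in RefSeq promoter windows matched by gene ID.

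The members, the lists and the rule for naming genes were chosen with earlier results of these data known. Named were every called member, the members with the largest positive and negative mean difference of each complex, the tissue isoforms of complex IV with their counterparts, the Sdh genes, and in other lists up to 4 called genes or, where 0 were called, the 2 that differed most. Further members named for their pattern were chosen after their values were seen, as was the test of same-sex against opposite-sex pairs. The lists were complex I assembly factors, assembly factors of the other complexes, the tricarboxylic acid cycle, regulators of mitochondrial gene expression, the large mitochondrial ribosomal subunit, carriers, and markers of epithelium, adipocytes, smooth and striated muscle, acinar and immune cells and housekeeping genes. Alternatives were other treatments of the pair, covariates, pairs left out, quantile normalization, a filter on dim probe sets, centring on gene lists, variance moderation, array weights and a threshold of 0.1.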

Additional observations from a re-analysis of the deposited data

Results flagged for a closer look

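For 30 sets of 4 within-pair differences (named members and medians of complexes), the gap between the most extreme pair and the next was divided by the whole range and set against Dixon's 95% critical value for 4 values. Chance alone passes it in about 1 of 20 such sets, and 3 did. Cox6a2 had a ratio of 0.921, with pair 3 at 0.20 and the other pairs at −0.17, −0.18 and −0.15. Atp5k had a ratio of 0.84, with pair 1 at 0.36 and the other pairs at −0.06, −0.07 and −0.14. Cox7a2 had a ratio of 0.833, with pair 1 at 0.47 and the other pairs at 0.15, 0.17 and 0.11.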

How the results depend on the processing

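With the sibling pair as a block, 2 members were called higher in KO and 1 lower. With no replicate block these counts were 32 and 4, against 16.3% and 18.1% of all probe sets. Since pair means were nearly equal in the deposited values, that fit counts residual degrees of freedom that hold almost no spread. Its p-values are therefore too small, and its counts are not comparable with the others. Taking the replicate block as a random effect gave 2 and 1 (array 4.67% and 4.42%), with Atp5g2 in place of Uqcrc1 (adjusted p = 0.153 by limma). A shared pair effect cannot give the sibling correlation of −0.924 fitted in that setting. Adding sex to the block gave 0 and 0 (array 1.04% and 1.05%), with 12 and 3 at an unadjusted p under 0.05. Adding RNA integrity gave 0 and 0 (array 0.955% and 0.684%), with 14 and 3 unadjusted. Without replicate 1, 2, 3 or 4 the counts were 0 to 0 in both directions (array 0.401% to 0.986% higher and 0.252% to 1.08% lower), with 5 to 13 members higher and 2 to 4 lower at an unadjusted p under 0.05. With only pairs 1 and 2 they were 0 and 0 (array 0% and 0%, members 21 and 2 unadjusted), and with only pairs 3 and 4 they were 0 and 0 (array 0.0045% and 0.113%, members 3 and 2 unadjusted). Fits with fewer pairs or more terms have fewer residual degrees of freedom. Trend and robust variance gave 5 and 2 (array 5.11% and 3.88%), and so did a threshold of 0.1 (array 7.53% and 7.34%). The counts stayed at 2 and 1, with the same genes, without dim probe sets, after quantile normalization and with array weights.

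Centring on epithelial genes gave 1 higher (Uqcrc1) and 1 lower (Cox7a1), against 2.58% and 4.11% of the array. The medians were then 0.048 for all members, 0.036 for complex I, 0.076 for complex II, 0.033 for complex III, 0.036 for complex IV and 0.078 for complex V, with 57 members above 0, against 72 in the deposited scaling. Centring on housekeeping genes gave 0 higher, with 2 at an unadjusted p under 0.05 in limma, and 4 lower (Cox7a1, Cox6b2, Ndufa3 and Ndufa7), against 25.2% of the array. It moved the medians to −0.081 for all members, −0.093 for complex I, −0.053 for complex II, −0.096 for complex III, −0.093 for complex IV and −0.051 for complex V, and the array's median by the same amount, to −0.191. Uqcrc1 (0.252) and Ndufc1 (0.224) kept their direction there, and Cox7a1 its call (−0.851, adjusted p = 0.00712 by limma). Of 96 medians under alternatives, 89 moved by less than the spread between pairs. Part of this share was fixed in advance, since dropping the block, a random block, the sex term and trend variance leave every difference unchanged. The spread between pairs is wide for complex I. Its median of 0.082 turned to −0.022 with only pairs 3 and 4, and was 0.038 to 0.147 with 1 pair left out. The smallest difference called among members was 0.400, and 4 pairs limit the precision of smaller ones.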
